A study of Mus musculus with 8 samples.

Results

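Described here are 10 genes of the Wnt pathway and of the stem-like niche that this pathway maintains, read across 8 mouse lung tumors. They are Wnt7b, Porcn, Fzd5, Lgr4, Lgr5, Rnf43, Znrf3, Ctnnb1, Tcf7l2 and Axin2, taken by symbol from the 48709 genes of the count table after matching its gene identifiers to the GENCODE M21 annotation. The rule names them by symbol, but they were chosen with earlier results of these data known. All tumors arose in mice of the K model on a mixed B6J/129S4vJae background, started by a lentivirus that delivers Cre, Cas9 and a guide RNA by endotracheal intubation. In the 4 K-Ctrl tumors the guide was a non-targeting control against GFP, and in the 4 K-Setd2KO tumors it was directed at Setd2, a histone H3K36 methyltransferase, so that both groups carried the alleles of the K model, Cre and Cas9. According to the study, specimens of the groups were matched for stage by histology and the K-Setd2KO tumors were low-grade adenomas. The record describes frozen tumors, while its extraction text speaks of cell lines, which was not resolved here. The labels give neither age nor sex, and do not say which tumors came from the same animal, so the spread between tumors of a group may include tumors of 1 animal.

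Wnt ligands are lipid-modified in the secreting cell and bind Frizzled receptors on the receiving cell, which frees beta-catenin from a cytoplasmic complex that otherwise has it degraded. Beta-catenin then enters the nucleus and acts with TCF and LEF proteins at target genes, of which Axin2 is the one most often used as a readout because it rises in many cell types when the pathway is active. R-spondins, through Lgr receptors, protect Frizzled from the ubiquitin ligases Rnf43 and Znrf3. In the adult lung, Wnt signals maintain a subset of alveolar type 2 cells with stem cell activity, and in lung adenocarcinoma of the mouse, Lgr5 and Porcn have been used to mark Wnt-responding and Wnt-producing tumor cells.

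Among the 10 genes, only Tcf7l2 passed the test between the genotypes, and it was lower in K-Setd2KO tumors. Axin2 was also lower in each K-Setd2KO tumor than in any K-Ctrl tumor, without passing the test. Wnt7b lay below the K-Ctrl range in 3 of 4 K-Setd2KO tumors, and Lgr5 stayed under 1 CPM apart from 1 K-Setd2KO tumor. The receptor Fzd5, the transducer Ctnnb1 and the other genes overlapped between the groups. A gene is called changed here when its p-value from edgeR's quasi-likelihood test, adjusted by the Benjamini-Hochberg method over all 14929 genes tested, is under 0.05. Of those genes 1897 (12.7%) were called, 1155 (7.74%) as lower and 742 (4.97%) as higher in K-Setd2KO tumors. The filter on low counts kept 9 of the 10 genes for the test, all except Lgr5, and the 1 call among them (11.1%) is near that background share. Groups that did not overlap were found for 3027 of the tested genes (20.3%) and for 2 of these 9 (22.2%), so neither count sets the 9 genes apart from other genes. Their median log2 fold change was 0.08, beside 0.03 over all tested genes.

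Total counts ran from 5806599 in K-Setd2KO 4 to 21290402 in K-Ctrl 3, so that 3 counts corresponded to between 0.138 and 0.513 CPM, that is, counts scaled to a library size of 1000000 after TMM normalization. Setd2 itself had 140.1 ± 8.81 CPM in K-Ctrl tumors and 135.7 ± 15.5 CPM in K-Setd2KO tumors (SD, n = 4 each; log2 fold change −0.05, adjusted p = 0.824), so its total RNA does not separate the groups. The lung origin in the label was checked on the alveolar type 2 markers Sftpc and Nkx2-1, which were high in every tumor. These mark a lung cell type and do not tell tumor from normal lung. Sftpc had 25164 ± 5046 CPM in K-Ctrl tumors and 25119 ± 3714 CPM in K-Setd2KO. Ptprc (CD45), which marks all leukocytes, ranged from 144.0 to 346.9 CPM in K-Ctrl tumors and from 45.1 to 61.3 CPM in K-Setd2KO tumors and was called lower. Of 7 pan-leukocyte genes 6 were called lower, with a summed level of 587 to 1147 CPM against 201 to 281 CPM. Of 20 pan-epithelial genes 8 were called higher, at 2757 to 4147 CPM against 3868 to 4734 CPM in sum. None of the defining markers Epcam, Sftpc, Nkx2-1, Ptprc, Pecam1 and Col1a1 was at 0 in any tumor. In bulk tumor RNA, fewer cells of a type and less RNA per cell cannot be told apart. By Xist and Y-linked genes, 3 K-Ctrl tumors and 1 K-Setd2KO tumor were male and 1 and 3 were female, so sex was uneven between the groups. Differences within a sex are therefore values without a spread, since one arm of each holds a single tumor.

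The windows before the gene starts are shown for the 2 genes whose groups did not overlap, because Tcf7l2 encodes a factor that binds DNA and Axin2 is its classical target. RefSeq start windows on build GRCm38.p6 matched 6 of the 10 genes, at 9 starts: Fzd5, Lgr4, Ctnnb1, Rnf43, Axin2 and Tcf7l2. No window was at hand for Lgr5, Porcn, Wnt7b and Znrf3. The TCF and LEF recognition letters were searched on both strands in the 250 bases before each start, as CTTTGAT with its 3 variants, which end in AA (CTTTGAA), in TT (CTTTGTT) or in TA (CTTTGTA). They occurred in 4874 of 32851 such windows (14.8%) and in 1 of the 9, that of an internal start of Tcf7l2. Capitals mark that match, a CTTTGTT whose first base lies 14 bases before the start. The windows are, on the plus strand, chr11:108920099-108920348 for Axin2, chr19:55741560-55741809 for the first start of Tcf7l2 and chr19:55895071-55895320 for its internal start.
Axin2: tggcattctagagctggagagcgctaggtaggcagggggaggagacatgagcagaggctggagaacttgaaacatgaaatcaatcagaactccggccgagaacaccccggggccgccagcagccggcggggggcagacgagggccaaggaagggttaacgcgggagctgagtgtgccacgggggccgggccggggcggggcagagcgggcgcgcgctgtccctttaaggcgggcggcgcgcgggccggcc
Tcf7l2, first start: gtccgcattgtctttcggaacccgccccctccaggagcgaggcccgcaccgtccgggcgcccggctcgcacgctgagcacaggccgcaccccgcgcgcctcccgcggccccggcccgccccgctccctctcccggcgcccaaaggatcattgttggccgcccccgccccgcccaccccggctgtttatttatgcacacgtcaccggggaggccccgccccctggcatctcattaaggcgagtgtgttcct
Tcf7l2, internal start: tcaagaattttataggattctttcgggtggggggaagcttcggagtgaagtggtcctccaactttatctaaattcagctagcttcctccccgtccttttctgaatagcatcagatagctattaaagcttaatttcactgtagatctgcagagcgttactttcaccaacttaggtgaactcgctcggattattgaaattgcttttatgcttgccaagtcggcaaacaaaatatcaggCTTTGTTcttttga
The Axin2 window and that of the first Tcf7l2 start were rich in G and C, at 69.2% and 72.8%, beside a median of 52.4% over all windows. They held 24 and 30 CpG dinucleotides against a median of 6, while the internal Tcf7l2 start had 40.8% G and C and 7 CpG dinucleotides. A match describes letters only, and a window with no match says nothing about sites elsewhere in the gene.

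The ligand gene Wnt7b (ENSMUSG00000022382.14, chr15:85535439-85581821, minus strand), which lung epithelium expresses, had 8.80, 10.5, 9.69 and 12.0 CPM in K-Ctrl tumors 1 to 4. In K-Setd2KO tumors 1 to 4 it had 4.06, 1.84, 3.78 and 11.5 CPM. The first 3 K-Setd2KO tumors lay below all K-Ctrl tumors, whereas K-Setd2KO 4 lay among them. The means were 10.2 ± 1.34 and 5.29 ± 4.24 CPM (SD, n = 4), and the log2 fold change of −0.99 (SE 0.477, 95% interval −2.07 to 0.08) did not pass the test (adjusted p = 0.199). Without K-Setd2KO 4, the tumor that lay among the K-Ctrl tumors, it was −1.66 with an adjusted p of 0.0259; this was the only one of 8 such fits to pass, and the smallest change, without K-Setd2KO 2, was −0.71 (adjusted p = 0.276). Within males the genotypes differed by −1.38 and within females by −1.21 on the log2 CPM scale. An antisense gene, AU022754, overlaps exons of Wnt7b and held 106 counts over all tumors.

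Porcn (ENSMUSG00000031169.13, chrX:8193848-8206525, minus strand) encodes the acyltransferase that Wnt proteins need for secretion. Its levels were 8.99, 7.56, 8.68 and 7.68 CPM in K-Ctrl tumors and 7.04, 12.5, 15.4 and 11.0 CPM in K-Setd2KO tumors. K-Setd2KO 2, 3 and 4 lay above every K-Ctrl tumor and K-Setd2KO 1 below every one, so the K-Setd2KO tumors spread 2.19-fold and the K-Ctrl tumors 1.19-fold. The log2 fold change was 0.48 (SE 0.249, 95% interval −0.08 to 1.04, adjusted p = 0.233), and 0.30 without K-Setd2KO 3. Porcn lies on the X chromosome; within males the genotypes differed by 0.86 and within females by 0.38 on the log2 CPM scale.

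Of the receptors, Fzd5 (ENSMUSG00000045005.9, chr1:64730558-64737751, minus strand), a Frizzled to which Wnt ligands bind, had 64.7, 45.5, 45.8 and 63.1 CPM in K-Ctrl tumors and 56.3, 67.3, 61.3 and 46.6 CPM in K-Setd2KO tumors. An opposite-strand transcript, Gm38058, overlaps its exons with 29 counts. The groups covered nearly one range, with a log2 fold change of 0.08 (SE 0.170, 95% interval −0.30 to 0.46, adjusted p = 0.789). It was −0.0002 without K-Ctrl 2 and −0.0048 without K-Setd2KO 2. Lgr4 (ENSMUSG00000050199.13, chr2:109917647-110014257, plus strand), a receptor for R-spondins, had 9.23, 8.49, 10.1 and 3.48 CPM in K-Ctrl tumors and 6.83, 17.1, 9.60 and 5.65 CPM in K-Setd2KO tumors. K-Setd2KO 2 was the highest of all tumors and K-Ctrl 4 the lowest, and the highest tumor stood 2.89-fold above the lowest in K-Ctrl and 3.03-fold in K-Setd2KO. The log2 fold change of Lgr4 was 0.33 (SE 0.419, 95% interval −0.61 to 1.27, adjusted p = 0.641). It was 0.089 without K-Ctrl 4 and turned to −0.093 without K-Setd2KO 2.

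Lgr5 (ENSMUSG00000020140.15, chr10:115450311-115587780, minus strand), the R-spondin receptor that marks stem cells in several epithelia, had 15, 0, 3 and 1 counts in K-Ctrl tumors and 6, 0, 4 and 35 counts in K-Setd2KO tumors. These are 0.923, 0, 0.138 and 0.0892 CPM and 0.308, 0, 0.369 and 5.99 CPM. In K-Ctrl 2 and K-Setd2KO 2 no count was found, which allows up to 0.252 and 0.229 CPM (3 counts, counting error only). The library of K-Setd2KO 4, the shallowest of the series, held 77.8% of the 45 K-Setd2KO counts, and the other 3 averaged 0.226 CPM. Lgr5 was left out of the fit by the filter, and an exact permutation test of CPM over the 70 assignments of tumors to groups gave a two-sided p = 0.543, where 0.0286 is the smallest possible. A fit without the filter gave a log2 fold change of 2.32 (adjusted p = 0.459).

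The ubiquitin ligases Rnf43 (ENSMUSG00000034177.15, chr11:87662722-87735539, plus strand) and Znrf3 (ENSMUSG00000041961.14, chr11:5276324-5444847, minus strand) remove Frizzled from the cell surface and are themselves targets of the pathway. Rnf43 had 18.1, 20.4, 19.0 and 26.3 CPM in K-Ctrl tumors and 23.0, 24.1, 19.6 and 34.7 CPM in K-Setd2KO tumors. Znrf3 had 21.6, 22.8, 16.3 and 24.1 CPM in K-Ctrl tumors and 8.06, 21.5, 16.7 and 13.2 CPM in K-Setd2KO tumors. Both genes overlapped between the groups, with fitted changes of opposite sign. The log2 fold change of Rnf43 was 0.27 (SE 0.207, 95% interval −0.20 to 0.74, adjusted p = 0.417), and that of Znrf3 was −0.51 (SE 0.283, 95% interval −1.15 to 0.13, adjusted p = 0.259). Single tumors moved both, to 0.081 for Rnf43 without K-Setd2KO 4 and to −0.30 for Znrf3 without K-Setd2KO 1. Within males and females Rnf43 differed by −0.09 and 0.39 and Znrf3 by −0.29 and −0.78 on the log2 CPM scale, each value resting on a single tumor in one arm. Per length, in RPKM (CPM per kilobase of exon), the ratio of Rnf43 to Znrf3 was 1.01, 1.08, 1.40 and 1.32 in K-Ctrl and 3.43, 1.35, 1.41 and 3.17 in K-Setd2KO tumors. In K-Setd2KO 1 and 4 the ratio stood above every K-Ctrl tumor, and in K-Setd2KO 2 and 3 it fell in or next to the K-Ctrl range. This ratio does not depend on library scaling; it was chosen after the values were seen and is a description.

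Ctnnb1 (ENSMUSG00000006932.16, chr9:120929216-120960507, plus strand), which encodes beta-catenin, was the most abundant of the 10 genes in every tumor. It had 1055.7, 1043.8, 1138.5 and 1118.3 CPM in K-Ctrl tumors and 1252.4, 1130.3, 1308.3 and 1005.7 CPM in K-Setd2KO tumors. The groups overlapped, and the log2 fold change of 0.11 (SE 0.132, 95% interval −0.19 to 0.41, adjusted p = 0.623) was the one estimated most tightly of the 9 genes. Beta-catenin is regulated chiefly by degradation of the protein, which RNA does not measure. A microRNA gene (Mir7090) and the opposite-strand gene Ulk4 overlap its exons and held 6 and 258 counts over all tumors.

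Tcf7l2 (ENSMUSG00000024985.18, chr19:55741810-55933654, plus strand), the nuclear partner of beta-catenin also known as TCF4, had 55.0, 60.7, 68.7 and 38.9 CPM in K-Ctrl tumors. In K-Setd2KO tumors it had 22.1, 30.8, 34.1 and 38.9 CPM. The groups met without overlapping, since the lowest K-Ctrl tumor (K-Ctrl 4) and the highest K-Setd2KO tumor (K-Setd2KO 4) had 38.91 and 38.85 CPM. The mean fell from 55.8 ± 12.6 to 31.5 ± 7.07 CPM (SD, n = 4), that is to 56.4% of the K-Ctrl mean, with a log2 fold change of −0.83 (SE 0.218, 95% interval −1.32 to −0.34, adjusted p = 0.0378). The direction was the same within each sex, at −0.63 in males and −1.02 in females on the log2 CPM scale. The call was lost when K-Ctrl 1, 2 or 3 or K-Setd2KO 1, 2 or 3 was left out, with adjusted p from 0.0614 to 0.106 and log2 fold changes from −0.87 to −0.69, and it held without K-Ctrl 4 (0.0181) and without K-Setd2KO 4 (0.0427). With sex as a term in the fit the log2 fold change was again −0.83, with an SE of 0.259 and an adjusted p of 0.0852. Of the 9 settings that kept all tumors, 7 kept the call, among them the DESeq2 Wald test (adjusted p = 0.00504). It was lost with the sex term and with replicate number as a term (adjusted p = 0.0762). No other annotated gene overlaps exons of Tcf7l2.

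Axin2 (ENSMUSG00000000142.15, chr11:108920349-108950783, plus strand), a scaffold of the degradation complex and feedback inhibitor, had 16.3, 7.65, 9.05 and 7.14 CPM in K-Ctrl tumors. In K-Setd2KO tumors it had 4.78, 6.27, 2.77 and 7.02 CPM. All K-Setd2KO tumors lay below all K-Ctrl tumors, though K-Ctrl 4 and K-Setd2KO 4 were almost equal. The means were 10.02 ± 4.23 and 5.21 ± 1.87 CPM (SD, n = 4). The log2 fold change of −0.96 (SE 0.366, 95% interval −1.78 to −0.13) did not pass the test (adjusted p = 0.117), and without K-Ctrl 1, the highest tumor, it was −0.62. Within males it was −1.82 and within females −0.35 on the log2 CPM scale. The antisense gene Gm11670 overlaps exons of Axin2 and had 0 counts.

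**Figure D1:**
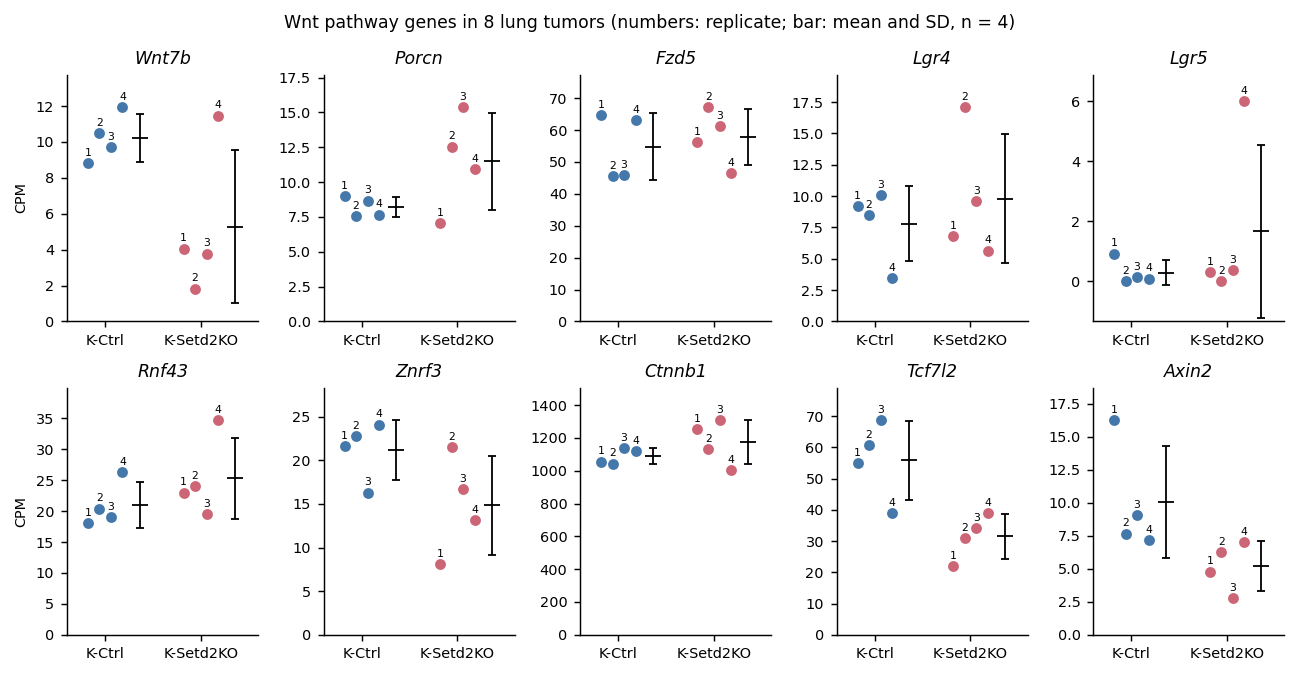
Each panel plots CPM (linear axis) of one gene in the 4 K-Ctrl (blue) and 4 K-Setd2KO (red) tumors, numbered by replicate, with the mean and SD (n = 4) at the right of each group. Tcf7l2 and Axin2 are the 2 tested genes whose groups do not overlap, and K-Setd2KO 4 stands alone for Lgr5 at 5.99 CPM and among the K-Ctrl tumors for Wnt7b at 11.5 CPM.

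Levels of different genes were compared per length, as RPKM with the exon length given in the table. In K-Ctrl tumors Ctnnb1 stood first at 213.6 ± 9.10 RPKM, followed by Fzd5 at 7.92 ± 1.52, Tcf7l2 at 6.39 ± 1.44, Rnf43 at 3.20 ± 0.564, Porcn at 2.74 ± 0.238, Znrf3 at 2.69 ± 0.433, Wnt7b at 2.32 ± 0.304, Axin2 at 1.82 ± 0.768, Lgr4 at 1.33 ± 0.503 and Lgr5 at 0.0280 ± 0.0417 RPKM (SD, n = 4). Gaps between the ranges of neighbours in this order separated Ctnnb1 from Fzd5, Tcf7l2 from Rnf43 and Lgr4 from Lgr5, and all other neighbours overlapped. In K-Setd2KO tumors Ctnnb1 (230.3 ± 26.4 RPKM) and Fzd5 (8.37 ± 1.27 RPKM) were again first and second. Tcf7l2 had rank 5 there at 3.60 ± 0.810 RPKM, behind Rnf43 at 3.87 ± 0.999 and Porcn at 3.83 ± 1.16 RPKM, from which its range was not separate. Axin2 had rank 9 at 0.946 ± 0.340 RPKM, overlapping Wnt7b above it at 1.20 ± 0.960 and Lgr5 below it at 0.162 ± 0.281 RPKM.

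Tcf7l2 is one of 4 TCF and LEF genes, and its share of their summed RPKM depends on the levels of the other 3 as well as its own. It made up 31.8, 30.6, 41.2 and 19.5% in K-Ctrl and 9.15, 17.0, 14.2 and 10.7% in K-Setd2KO tumors, with means of 30.8 ± 8.90% and 12.8 ± 3.52% (SD, n = 4). Every K-Setd2KO tumor was under every K-Ctrl tumor, but K-Ctrl 4 and K-Setd2KO 4 had nearly the same Tcf7l2 level (4.453 and 4.446 RPKM) and differed in share by their Tcf7l1 level (14.2 and 35.3 RPKM). Tcf7l1, a family member known mostly as a repressor, rose from 36.03 ± 13.3 to 94.0 ± 32.6 CPM, by 1.38 on the log2 scale (SE 0.300, adjusted p = 0.0211). Its share went from 43.2 ± 13.4% to 80.6 ± 5.08%. Tcf7, a family member strongly expressed in T cells and itself a target of the pathway, fell from 13.6 ± 5.94 to 4.05 ± 0.141 CPM (log2 fold change −1.75, SE 0.312, adjusted p = 0.0116), and its share from 24.4 ± 9.59% to 5.59 ± 1.58%. Lef1 made up at most 2.05% of the sum in any tumor. These shares were chosen after the values were seen and are a description; they do not depend on library scaling. Tcf7l1 lies on chromosome 6, whose 839 tested genes stood above the other autosomes by a median of 0.30, 0.31 and 0.35 on the log2 scale in K-Setd2KO 1, 3 and 4 and by −0.04 in K-Setd2KO 2. Tcf7l1 had 60.4 CPM in K-Setd2KO 2, above the 55.9 CPM of the highest K-Ctrl tumor; the part of chromosome 6 in its change was not tested. The leukocyte markers moved with Tcf7, and their part in its change was not tested.

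**Figure D2:**
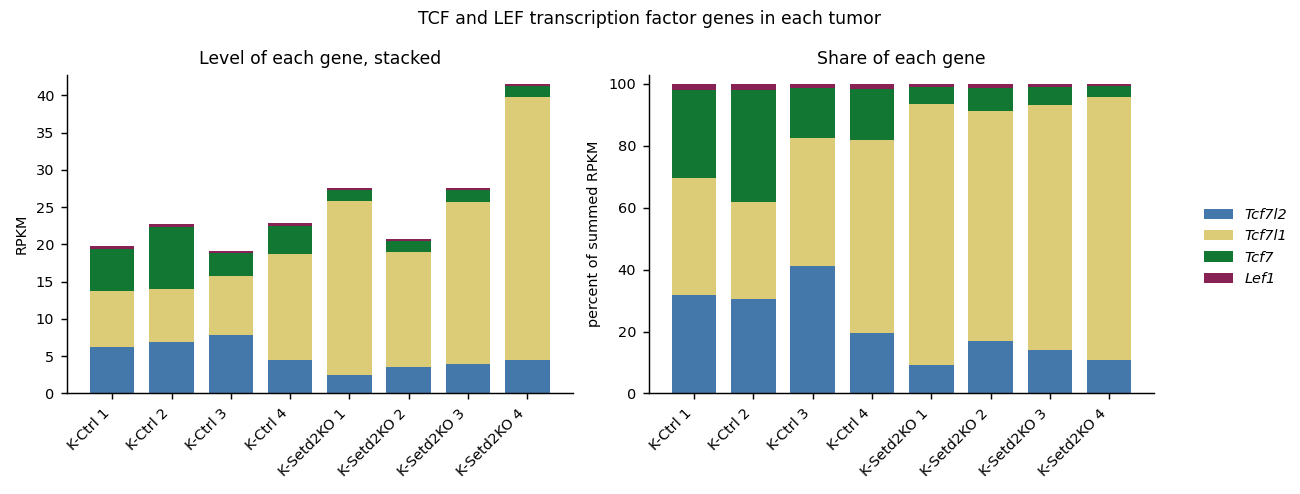
Stacked bars give, for each of the 8 tumors, the RPKM of Tcf7l2, Tcf7l1, Tcf7 and Lef1 (left, linear axis) and the percent each takes of their sum (right). Tcf7l2 (blue) takes 19.5 to 41.2% in K-Ctrl and 9.15 to 17.0% in K-Setd2KO tumors, where Tcf7l1 (yellow) takes 74.2% or more.

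Beyond the 10 genes, 102 further genes were grouped by role in the pathway. Of these 79 were tested, and 11 were called, 4 as higher and 7 as lower in K-Setd2KO tumors, and the median of their log2 fold changes was −0.08. These calls make up 13.9% of the tested pathway genes, near the 12.7% over all genes, so their number is not a result about the pathway. It was 3 with sex as a term in the fit, 4 without K-Ctrl 1 and 3 without K-Ctrl 3, so at most that many of the 11 calls held in each of these fits. The called genes were in the lists of ligands, R-spondins, antagonists, nuclear effectors, targets and progenitor genes, and none was a Frizzled receptor, a co-receptor or a component of the degradation complex.

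Of the 19 ligand genes, which include Wnt7b, 10 were tested, 9 of them at lower and 1 (Wnt7a) at higher fitted level, and their median log2 fold change was −1.25. Only Wnt2, a ligand of lung mesenchyme, was called: it had 6.59, 2.27, 4.201 and 1.07 CPM in K-Ctrl tumors and 0.411, 0.153, 0 and 0.342 CPM in K-Setd2KO tumors, the latter from 8, 2, 0 and 2 counts (log2 fold change −3.89, SE 0.807, adjusted p = 0.0177). Wnt2b (−1.50, SE 0.484, adjusted p = 0.0716) and Wnt10b (−2.33, SE 0.764, adjusted p = 0.0756) did not pass. Summed over the ligands, the level was 50.2 to 62.7 CPM in K-Ctrl tumors and 23.3 to 48.3 CPM in K-Setd2KO tumors, and the groups did not overlap. Porcn's partner in secretion, the carrier Wls, had a log2 fold change of 0.08 (SE 0.123, adjusted p = 0.704).

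Beside Fzd5, 12 receptor genes were tested and none was called, with a list median of −0.10. The 3 with the smallest p were the co-receptor Lrp5 at 0.50 (SE 0.161, adjusted p = 0.0705), Ror2 at −1.85 (SE 0.738, adjusted p = 0.130) and Fzd6 at 0.82 (SE 0.403, adjusted p = 0.212). In the R-spondin axis 6 of 9 genes were tested and 1 called, with a median of −0.37. Rspo1, a secreted ligand of the Lgr receptors, fell from 5.56 ± 3.33 to 0.536 ± 0.597 CPM (log2 fold change −3.26, SE 0.849, adjusted p = 0.0378), although K-Ctrl 4 at 1.07 CPM was below K-Setd2KO 1 at 1.39 CPM. Rspo3 was at −2.21 (SE 0.827, adjusted p = 0.109) and the receptor Lgr6 at −0.23 (SE 0.514, adjusted p = 0.798). Of 16 secreted and membrane antagonists 9 were tested, with a median of −0.34, and Sfrp2, which binds Wnt ligands outside the cell, was called lower (−3.87, SE 0.768, adjusted p = 0.0154). Dkk3 (−0.999, SE 0.324, adjusted p = 0.0736) and Frzb (2.68, SE 1.097, adjusted p = 0.140) were not called.

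The degradation complex and transducers, where Ctnnb1 and Axin2 belong, had 15 tested genes, no call and a median of 0.04. Outside these 2 the smallest p-values were those of Csnk1a1 (0.29, SE 0.108, adjusted p = 0.114), Dvl2 (0.27, SE 0.181, adjusted p = 0.352) and Btrc (−0.24, SE 0.202, adjusted p = 0.454). The nuclear effectors, with Tcf7l2 among them, held 6 calls in 13 genes, 4 higher and 2 lower, and a median of 0.15, beside 12.7% called over all genes, 4.97% as higher and 7.74% as lower. The list was chosen with earlier results known, so this count is a description. Besides Tcf7l1, the co-repressor Tle2 rose from 61.1 ± 10.3 to 111.1 ± 10.1 CPM, by 0.86 on the log2 scale (SE 0.142, adjusted p = 0.00895). The beta-catenin co-activators Bcl9 (0.67, SE 0.169, adjusted p = 0.0333) and Bcl9l (0.69, SE 0.162, adjusted p = 0.0268) were also called higher and are named after their values were seen. The summed level of the 13 genes was 507 to 581 CPM in K-Ctrl tumors and 621 to 794 CPM in K-Setd2KO tumors.

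Of the 19 beta-catenin target genes, which include Axin2, Lgr5, Rnf43 and Znrf3, 17 were tested, with a median of −0.42. Of these 3 were called lower and none higher, beside 7.74% called lower and 4.97% called higher over all genes. By fitted sign 11 were lower and 6 higher, and the summed level of the list overlapped between the groups. Besides Tcf7, the calls were Prox1, a transcription factor also central to lymphatic endothelium (−2.12, SE 0.445, adjusted p = 0.0183), and Nkd2, a feedback inhibitor that binds Dishevelled (−1.26, SE 0.327, adjusted p = 0.0367). Prox1 went from 4.64 ± 1.48 to 1.028 ± 0.529 CPM and Nkd2 from 10.3 ± 4.17 to 4.31 ± 1.155 CPM, both without overlap. Among 13 stem-like and progenitor genes 12 were tested with a median of −0.05, and Aldh1a1, an aldehyde dehydrogenase used as a stem cell marker, was called lower (−2.34, SE 0.559, adjusted p = 0.0292). Ly6a (Sca-1) was at −1.09 (SE 0.446, adjusted p = 0.140). Sox9, a progenitor transcription factor, varied most by tumor, with 0.554, 14.0, 0.369 and 8.75 CPM in K-Ctrl tumors and 25.6, 0.382, 29.3 and 98.2 CPM in K-Setd2KO tumors (log2 fold change 2.72, SE 1.38, adjusted p = 0.223). The highest Sox9 value was that of K-Setd2KO 4, the tumor with 35 of the Lgr5 counts. The other tumors did not follow this pairing throughout. K-Ctrl 1, with 15 Lgr5 counts, had 0.554 CPM of Sox9, and K-Ctrl 2, at 14.0 CPM of Sox9, had no Lgr5 count.

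Markers of stromal cells, which express some of these ligands, R-spondins and antagonists, were read beside them. Of 9 endothelial genes 2 were called lower (summed 562 to 2062 against 221 to 583 CPM), as were 2 of 9 fibroblast genes (765 to 1785 against 243 to 929 CPM) and 6 of 7 macrophage genes (492 to 1629 against 167 to 339 CPM). None of 6 smooth muscle genes was called (75.8 to 150.8 against 41.1 to 126.1 CPM). By fitted sign 9 of 9 endothelial, 8 of 9 fibroblast and 6 of 6 smooth muscle genes were lower, with medians of −1.39, −0.87 and −0.73, and the summed levels of these 3 lists overlapped between the groups. Pecam1 had 284.2 ± 169.5 CPM in K-Ctrl tumors against 108.3 ± 49.99 CPM (log2 fold change −1.39, SE 0.439, adjusted p = 0.0699), and Col1a1 168.7 ± 98.2 against 92.2 ± 44.95 CPM (−0.87, SE 0.481, adjusted p = 0.260). Of the other lung epithelial lists, 2 of 8 alveolar type 1 genes (2775 to 5655 against 1666 to 3023 CPM) and 1 of 5 ciliated genes (40.3 to 123.7 against 11.6 to 27.6 CPM) were called lower, none of 4 club cell genes was called, and of 12 alveolar type 2 genes 2 were higher and 1 lower. Of 10 proliferation genes 2 were called lower (325.9 to 352.5 against 120.6 to 248.5 CPM). By fitted sign all 10 were lower, with a median of −0.94, and the summed levels did not overlap. The part of these cell types in the values of the Wnt genes was not tested.

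**Figure D3:**
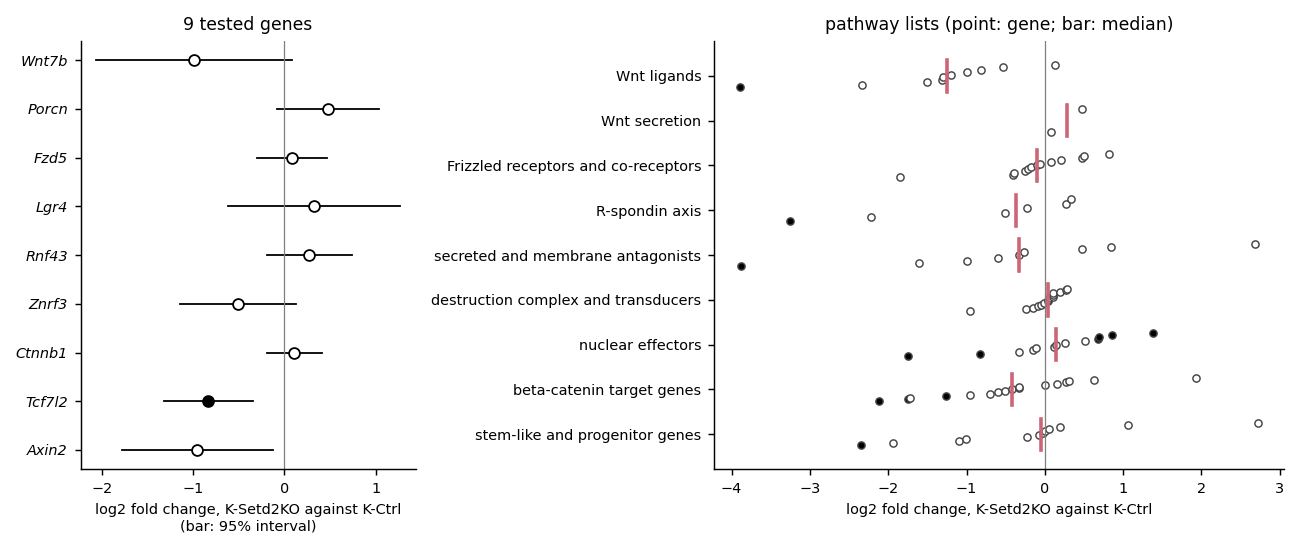
Left, log2 fold changes of the 9 tested genes (K-Setd2KO against K-Ctrl, n = 4 each) with 95% intervals; right, the same for each tested gene of 9 pathway lists, with the list median as a red bar, and filled points for genes called at an adjusted p under 0.05. Tcf7l2 at −0.83 is the only filled point on the left, and the ligands have the lowest list median, −1.25.

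The libraries can also be scaled by the summed counts of the 20 pan-epithelial genes in place of the library size. Of these 20 genes 8 were themselves called higher in K-Setd2KO tumors, and whether their sum follows the amount of tumor epithelium was not tested. On that scale the median log2 fold change of all tested genes was −0.45, and the calls were 128 higher and 3326 lower in place of 742 and 1155. Tcf7l2 (−1.35, adjusted p = 0.0110), Axin2 (−1.48, adjusted p = 0.0211), Wnt7b (−1.46, adjusted p = 0.0462) and Znrf3 (−0.98, adjusted p = 0.0385) were then all called lower. Relative to the median of all genes on that scale they stood at −0.89, −1.03, −1.005 and −0.53, close to their values on the standard scale. Ctnnb1 (−0.37), Fzd5 (−0.38), Lgr4 (−0.23) and Rnf43 (−0.20) turned negative there without being called, and relative to that median they stood at 0.09, 0.07, 0.23 and 0.26.

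**Figure D4:**
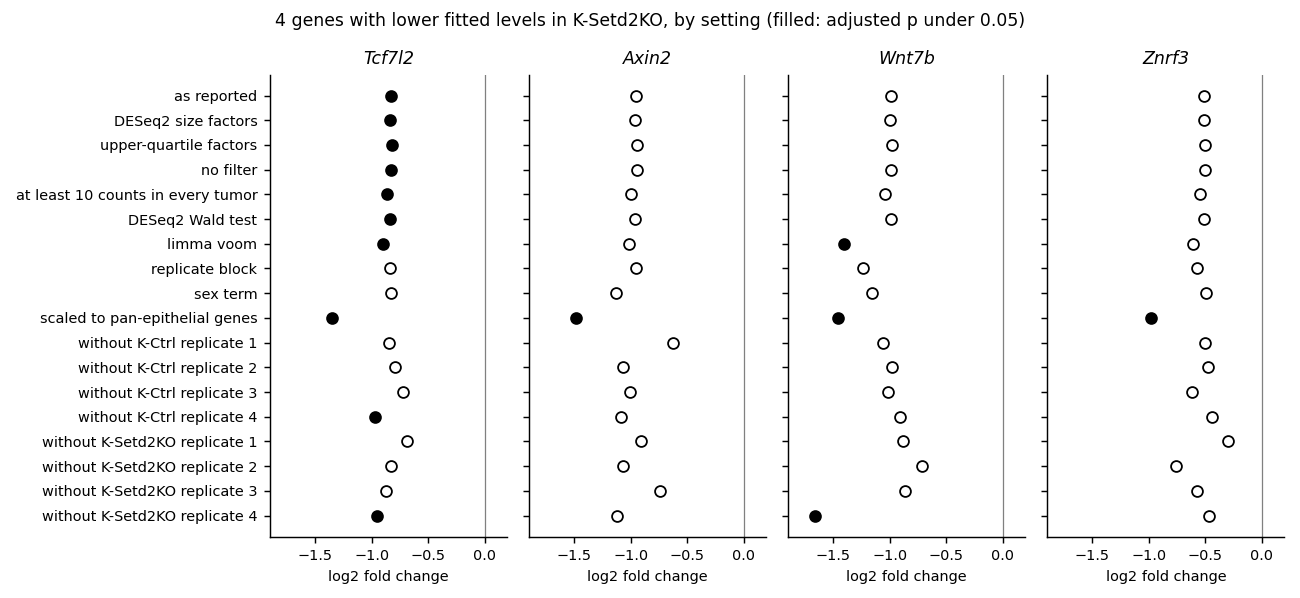
Log2 fold changes (K-Setd2KO against K-Ctrl) of the 4 genes with negative fitted changes, as reported and under each of 17 other settings, with filled points where the adjusted p was under 0.05. All points lie below 0; Tcf7l2 is filled under 9 of the 17, Wnt7b under 3, and Axin2 and Znrf3 under 1.

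Genes whose pattern over the 8 tumors was most like that of Tcf7l2, by the root mean square difference of log2 CPM after centring each gene, were A230072C01Rik (0.161), Tmem154 (0.178) and Cd1d1 (0.189) among the 14929 genes tested. For Axin2 they were Hspb7 (0.223), Tsc22d3 (0.227) and Rgl1 (0.262). Within the 9 tested genes, Axin2 and Tcf7l2 differed from each other by 0.524 on this measure, and the closest pair was Ctnnb1 and Fzd5 at 0.211, both of which varied little.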

How the data were processed

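RNA of 8 tumors had been prepared as stranded mRNA libraries and sequenced in pairs. The deposited values are raw read counts per gene, which, per the labels and the submitters' processing notes (STAR 2.5.2b, featureCounts 1.5.0-p1, GRCm38.p4), the authors made by alignment and counting; the strand setting and annotation release are not given in the sources used here. The deposited table also holds exon length. Of 48709 identifiers 48349 (99.26%) matched GENCODE M21; 20284 genes had no count.

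Counts were tested with edgeR 4.0.16 (R 4.3.3; filterByExpr, TMM, robust quasi-likelihood fit, genotype alone), as 4 against 4 tumors, with Benjamini-Hochberg adjustment over 14929 genes. Levels are CPM on TMM-scaled library sizes or RPKM. Log2 fold changes are those of the quasi-likelihood fit. The prior count of 2 enters only log2 CPM values, used for within-sex differences, gene patterns and replicate correlations. The study used DESeq2, tried here (1.42.0) beside limma voom 3.58.1, other scalings and filters, a sex term, a replicate block and leaving out each tumor. Named are the 10 genes, Setd2, the 3 other genes with the smallest p in each pathway list, defining markers, and the 3 genes most like Axin2 and Tcf7l2. The lists, like the genes, were chosen with earlier results of these data known. The test of Lgr5 was added after seeing the data. One allele that all the tumors share is not reported here.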

Additional observations from a re-analysis of the deposited data

Results flagged for a closer look

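In 20 sets of 4 values (10 genes in 2 groups), the gap of the highest or lowest tumor to its neighbour was compared with Dixon's 95% limit for 4 values. It was exceeded in 2 sets, where chance gives about 1. Both belong to Lgr5: K-Ctrl 1 had 0.923 CPM (15 counts) with the next K-Ctrl tumor at 0.138 CPM, and K-Setd2KO 4 had 5.99 CPM (35 counts) with the next K-Setd2KO tumor at 0.369 CPM.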

How the results depend on the processing

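Of 153 values of the 9 tested genes under 17 alternatives, 133 kept their direction and side of the threshold, 8 lost a call, all for Tcf7l2, 5 gained one and 7 turned sign. The scale of pan-epithelial genes, on which the median of all tested genes was −0.45, accounts for 3 of the gained calls and 4 of the turned signs. Genes called at large numbered 1897, and 3194 by DESeq2's Wald test, 1237 with sex as a term and 3454 on the pan-epithelial scale. Among the 9 genes the calls numbered 1, but 2 by limma voom (with Wnt7b, −1.41, adjusted p = 0.0424), 0 with the sex term and 4 on the pan-epithelial scale. The 102 further pathway genes had 11 calls, but 7 with at least 10 counts required in every tumor, 20 by DESeq2, 3 with the sex term and 21 on the pan-epithelial scale. On that scale Lgr4 (−0.23), Ctnnb1 (−0.37), Rnf43 (−0.20) and Fzd5 (−0.38) turned negative, beside the median of −0.45. The cause of the other differences was not tested.

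Leaving out 1 tumor at a time gave 763 to 2058 genes called, 0 to 2 of the 9 genes and 3 to 12 of the pathway genes. Genes at large numbered 938, 1126 and 763 without K-Ctrl 1, 2 and 3 and 1011 without K-Setd2KO 3, and pathway genes 4, 7, 3 and 7. Lgr4 then ranged from −0.093 (without K-Setd2KO 2) to 0.50, and Fzd5 from −0.0048 (without K-Setd2KO 2) to 0.17, with −0.0002 without K-Ctrl 2. Wnt7b ranged from −1.66 to −0.71, Porcn from 0.30 to 0.66, Rnf43 from 0.081 to 0.40, Znrf3 from −0.76 to −0.30 and Ctnnb1 from 0.055 to 0.17. Same-numbered tumors of the groups did not deviate together (r = −0.07, −0.03, 0.19 and −0.02), so the numbers do not pair them; only number 3 correlated best with its own number. With the replicate block 1341 genes, 0 of the 9 and 10 pathway genes were called, and Tcf7l2 had a log2 fold change of −0.83 with an adjusted p of 0.0762. Low counts limit Lgr5, which the filter leaves out, and the ligands and R-spondins with few counts in K-Setd2KO tumors.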
